A study of Mus musculus with 15 samples.

Results

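The interferon-induced GTPases described here are 10 genes, listed by symbol with earlier results of these data known: the guanylate-binding proteins Gbp2, Gbp2b, Gbp3, Gbp6 and Gbp7, and the immunity-related GTPases Irgm1, Irgm2, Igtp, Iigp1 and Ifi47. They are 10 of the 18193 genes that had a probe set of their own on the arrays, and each was read from 1 probe set naming that gene alone, the brightest on average over the 15 arrays where there were several. None of the 10 was lost to the filter on low values, so all were tested. Expression was measured on 15 one-colour arrays, 1 per sample and 3 samples per group, in macrophages cultured from mouse bone marrow for 7 days with M-CSF, the growth factor that turns marrow progenitors into macrophages. Neither strain nor sex nor age of the mice is named in the labels. M0 cells received nothing further. M1 cells received LPS from E. coli, which is read by Toll-like receptor 4, and interferon-gamma, the cytokine of activated T and NK cells. M2 cells received IL-4 and IL-13, the cytokines of type 2 immunity. M2+nutlin cells were M2 cells that also received nutlin-3a, which frees p53 from MDM2, and M2+10058F4 cells were M2 cells that also received 10058F4, which keeps MYC from pairing with MAX. Each agent was thus given on top of IL-4 and IL-13, and neither was given to M0 or M1 cells. No dose, exposure time or vehicle is named for either agent. Replicates are labelled as biological, but no mouse or culture is named, so p-values reflect only how far these samples lie apart, and that spread may be technical.

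Interferon-induced GTPases are among the most abundant proteins of a cell that has met interferon-gamma, and they defend it against microbes that live in vacuoles. Guanylate-binding proteins (GBPs) are large dynamin-like GTPases that coat pathogen vacuoles and bacteria in the cytosol and help bring caspase-11 and AIM2 into play; some carry a lipid tail that anchors them in membranes. Immunity-related GTPases (IRGs) are smaller: Iigp1 and Ifi47 belong to the effector branch that loads onto vacuoles of parasites such as Toxoplasma, whereas Irgm1, Irgm2 and Igtp belong to the regulator branch that sits on host membranes and keeps the effectors inactive there. The promoters of both families are known for GAS elements and for interferon-stimulated response elements (ISREs), the latter bound by IRF factors.

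Promoter windows from RefSeq, build GRCm38.p6, running from 250 bases before the transcription start to 50 bases after it, were held for 8 of the 10 genes, with 9 windows because Gbp3 had 2 starts. The 120 bases before the start are shown 5′ to 3′ for 7 of them, because all 7 genes rose with LPS and interferon-gamma but responded unequally to IL-4, nutlin-3a and 10058F4. Capitals mark matches to the ISRE core, GAAA followed by any bases NN and again GAAA, on either strand, so that a match on the other strand reads TTTC, NN, TTTC.
Irgm1, chr11:48871421-48871540, minus strand: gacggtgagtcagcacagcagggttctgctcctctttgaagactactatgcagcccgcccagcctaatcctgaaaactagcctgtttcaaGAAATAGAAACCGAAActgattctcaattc
Ifi47, chr11:49076467-49076586, plus strand: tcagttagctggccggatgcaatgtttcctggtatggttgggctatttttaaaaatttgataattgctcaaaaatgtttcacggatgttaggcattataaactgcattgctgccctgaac
Igtp, chr11:58199436-58199555, plus strand: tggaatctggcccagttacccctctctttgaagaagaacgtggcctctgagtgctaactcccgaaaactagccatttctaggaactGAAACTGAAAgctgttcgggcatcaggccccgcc
Irgm2, chr11:58214857-58214976, plus strand: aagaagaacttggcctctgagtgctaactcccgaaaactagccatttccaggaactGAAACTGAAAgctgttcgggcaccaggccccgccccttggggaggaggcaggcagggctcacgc
Gbp7, chr3:142530216-142530335, plus strand: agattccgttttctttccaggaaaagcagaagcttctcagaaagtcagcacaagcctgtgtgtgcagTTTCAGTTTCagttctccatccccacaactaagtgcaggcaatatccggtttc
Gbp3, chr3:142559924-142560043, plus strand: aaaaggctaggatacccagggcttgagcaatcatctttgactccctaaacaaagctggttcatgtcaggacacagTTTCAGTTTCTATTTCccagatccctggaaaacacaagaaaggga
Gbp2, chr3:142620543-142620662, plus strand: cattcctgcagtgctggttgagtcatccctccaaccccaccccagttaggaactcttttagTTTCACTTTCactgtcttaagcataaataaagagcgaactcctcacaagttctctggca
In these windows 7 of 8 genes held an ISRE core (7 of 9 windows), against 3.44% of all 32851 windows of the same length, and every match lay before the start. Gbp2b, not shown, held its match farther out, at -137 to -128 from the start. Irgm1 and Gbp3 each held 2 overlapping matches, which appear as 1 longer run of capitals. The GAS motif TTCNNNGAA, which reads the same on both strands, was found in 3 of 8 genes, against 8.30% of all windows: Igtp (-45 to -37), Irgm2 (-75 to -67) and Gbp7 (-106 to -98 and -87 to -79), and none of these overlapped an ISRE match. Igtp and Irgm2, which are next to each other on chromosome 11, shared an unbroken run of 38 bases, the longest between any pair of the printed stretches or that of Gbp2b. Ifi47 had neither motif in its window, as did the second start of Gbp3. A match describes letters only and is not a binding site.

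**Figure D1:**
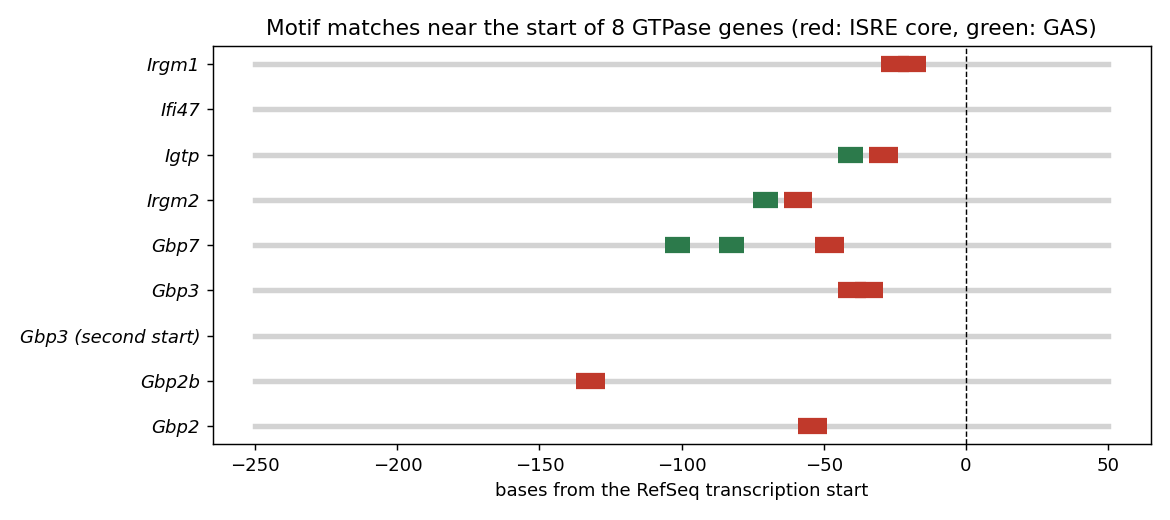
Positions of motif matches in bases from the RefSeq transcription start (dashed line) for 9 promoter windows of 8 GTPase genes; grey bars are the windows, red the ISRE core and green the GAS motif. Matches lie before the start in 7 genes and Ifi47 shows none.

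Values below are log2 expression, so a difference of 1 is a 2-fold change, and errors are standard deviations over 3 arrays for levels and standard errors (SE) of the limma fit for differences. A difference was called at an adjusted p under 0.05, with p-values adjusted over all 13703 tested genes of the comparison. Precision is limited by there being 3 arrays in a group. Within groups, pairs of arrays had r of 0.989 to 0.997 over all probe sets. The 40th percentile of an array, used as the filter on low values, lay between 4.34 and 4.52, and group means under it are not shown to be above background. All 8 macrophage markers were above it on every array, and Csf1r, Cd68, Adgre1 and Lyz2 had group means between 11.7 and 14.3.

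**Figure D2:**
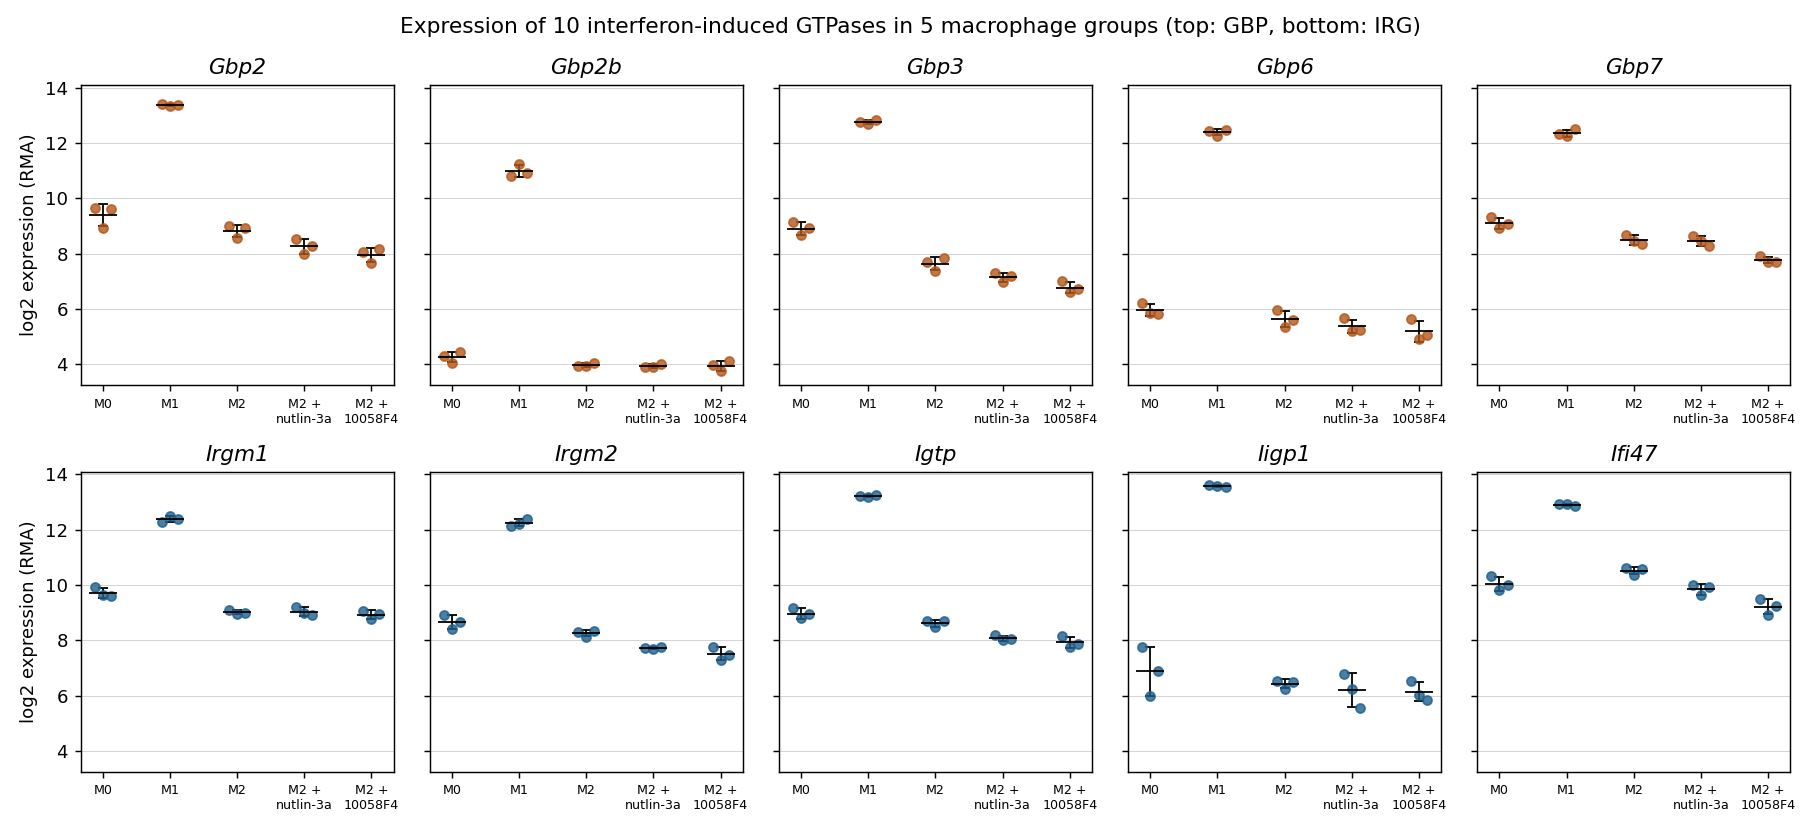
Log2 expression (RMA) of the 10 GTPases on each of 15 arrays, by group; points are arrays, the horizontal bar is the mean and the error bar the SD (n = 3). All 10 genes sit highest in M1, and the 3 groups with IL-4 and IL-13 have means below that of M0, except for Ifi47 in M2.

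LPS with interferon-gamma raised all 10 genes against M0, by 2.67 to 6.69 on the log2 scale for the 9 that were above the 40th percentile in M0. Gbp2b was called too, but it passed the filter on low values through its M1 arrays and so had to differ. Across all tested genes 33.6% were higher in M1 and 39.1% lower, and the median difference was -0.0048 against 3.91 for the 10 GTPases. The arrays of M1 and M0 did not overlap for any of the 10, as was the case in this direction for 32.9% of all tested genes.

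Among the guanylate-binding proteins, Gbp2b, one of the membrane-anchored members, read 4.29, 4.06 and 4.44 on the M0 arrays and 10.81, 11.24 and 10.90 on the M1 arrays. Its difference of 6.72 is a description and not an exact size, because only 1 of 3 M0 arrays was above the 40th percentile. Gbp6, which has close relatives beside it on chromosome 5, read 6.23, 5.85 and 5.83 in M0 and 12.44, 12.27 and 12.46 in M1. This was an 85.7-fold difference (6.42, SE 0.19, adjusted p = 1.8e-12), and its other probe set gave 5.79. Gbp2, a lipid-anchored GBP that coats Toxoplasma vacuoles, was already at 9.65, 8.93 and 9.63 in M0 and reached 13.39, 13.34 and 13.37 in M1. The rise was 15.7-fold (3.97, SE 0.19, adjusted p = 2.21e-10). Gbp3 rose by 3.85 (SE 0.14) and Gbp7, a GBP of the chromosome 3 cluster, by 3.25 (SE 0.12). The smallest rise of a GBP was thus that of Gbp7, at 9.55-fold.

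Among the immunity-related GTPases, the vacuole-loading effector Iigp1 had the largest rise. It read 7.76, 5.98 and 6.90 on the M0 arrays, the widest spread of any member in any group, and 13.61, 13.57 and 13.54 on the M1 arrays. The difference was 6.69 (SE 0.36, adjusted p = 6.53e-10), about 103-fold. The regulator Igtp rose 19.1-fold (4.25, SE 0.11, adjusted p = 4.93e-13), from 9.17, 8.79 and 8.94 to 13.22, 13.18 and 13.26. Its neighbour Irgm2 rose 12-fold (3.58, SE 0.13). Irgm1, the regulator needed for survival of mycobacterial infection in mice, and Ifi47 had the smallest rises, 6.35-fold (2.67, SE 0.11) and 7.26-fold (2.86, SE 0.15). Both had high M0 values, 9.93, 9.64 and 9.61 for Irgm1 and 10.32, 9.82 and 10.005 for Ifi47.

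In M1 cells all 10 genes lay near the top of the array. Mean array percentiles ran from 97.6 for Gbp2b through 99.3 for Irgm2 to 99.9 for Iigp1, against 38.0 to 94.8 in M0. The SD of the mean of the GBPs over the M1 arrays was 0.0369, against 0.223 in M0, and that of the IRGs 0.0287 against 0.346. By size of the difference, Iigp1 and Gbp6 ranked 11 and 17 of 13703 tested genes, and Ifi47 and Irgm1 312 and 382.

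M1 cells were also compared with M2 cells, and all 10 genes were higher in M1 (28.1% of all tested genes were), with arrays that did not overlap (28.7%); Gbp2b again passed the filter only through its M1 arrays. The differences ran from 2.38 for Ifi47 (SE 0.15, adjusted p = 2.51e-09) to 7.15 for Iigp1 (SE 0.36, adjusted p = 3.05e-10), with a median of 4.57. For 9 of the 10 genes the gap to M2 was larger than the gap to M0, and for Ifi47 it was smaller; the difference between M2 and M0 itself is given below. Both comparisons use the same M1 arrays.

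**Figure D3:**
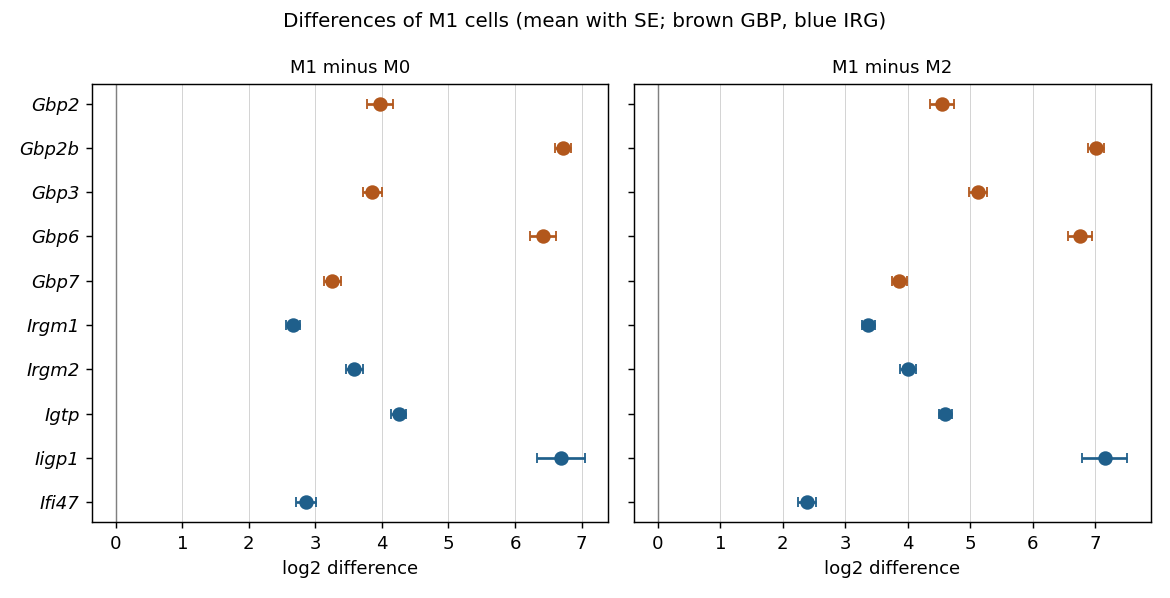
Log2 differences of M1 against M0 (left) and against M2 (right) for the 10 GTPases, with the SE of the limma fit; brown points are GBPs, blue IRGs, and every point is called at an adjusted p under 0.05. Gbp2b, Gbp6 and Iigp1 stand at 6.42 or above in both panels, and Irgm1 and Ifi47 lowest in the left one; the size for Gbp2b is not exact.

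The 2 families overlapped in their response to LPS and interferon-gamma. The 5 GBPs differed by 3.25 to 6.72 (median 3.97) and the 5 IRGs by 2.67 to 6.69 (median 3.58). On each array the mean of the GBPs minus the mean of the IRGs was taken; its level depends on the probe sets, and only its difference between groups can be read. It was -1.50, -1.24 and -1.25 on the M0 arrays and -0.49, -0.52 and -0.48 on the M1 arrays. The groups do not overlap, and the difference was 0.83 (SE 0.084 from the arrays), with mean rises of 4.84 and 4.01. This value holds Gbp2b, whose size is not exact. Without Gbp2b, left out after its values were seen, the difference was 0.36 (SE 0.077), still with no overlap, and the mean rise of the other 4 GBPs was 4.37. Of these only Gbp6 (6.42) rose by more than the IRG mean of 4.01. Gbp2 (3.97), Gbp3 (3.85) and Gbp7 (3.25) rose by less, so the remaining difference rests on Gbp6. The SE is over arrays and does not measure the spread between genes. Within the IRGs the effector branch held both the largest rise (Iigp1) and the next to smallest (Ifi47), with the 3 regulators between 2.67 and 4.25. M2 arrays stood at -1.61, -1.69 and -1.68, below every M0 array, a difference of -0.33 (SE 0.087). The M2+nutlin arrays stood at -1.58, -1.60 and -1.44, all above the M2 arrays by a small step (0.12, SE 0.058); the step was 0.066 without M2+nutlin replicate 3 and 0.058 without Gbp2b, where the arrays overlapped. The M2+10058F4 arrays stood at -1.69, -1.63 and -1.54 and overlapped M2 (0.038, SE 0.052; -0.099 without Gbp2b). No p is given for these values, because the members were chosen with results known.

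**Figure D4:**
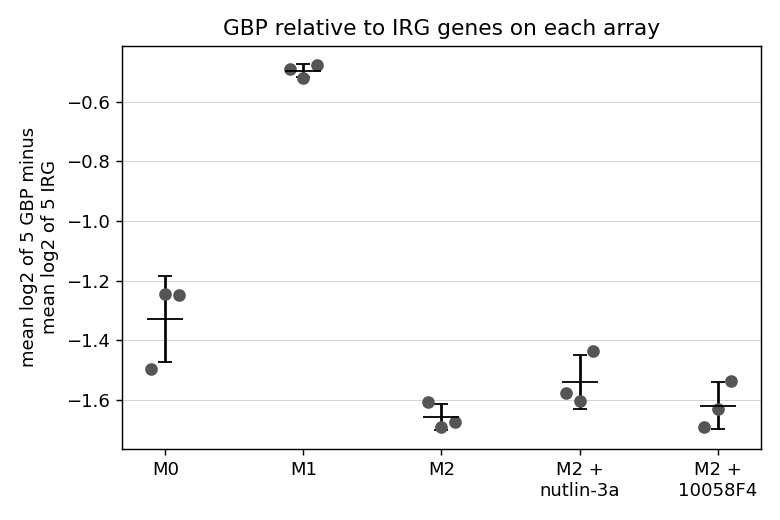
Mean log2 expression of the 5 GBPs minus that of the 5 IRGs on each array, by group; points are arrays, with mean and SD (n = 3). M1 arrays lie near -0.50 and the 12 other arrays between -1.69 and -1.24.

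IL-4 with IL-13 did not move the GTPases as a block: 6 of 10 were lower in M2 than in M0 and 1, Ifi47, was higher. Across all tested genes 18.4% were lower and 12.7% higher (with quantile normalization repeated, 1976 genes were lower and 2089 higher, against 2518 and 1735). The median of the 10 differences was -0.43, against -0.0037 for all tested genes. The arrays did not overlap for 6 genes lower in M2 (26.4% of all tested genes), namely Gbp2b, Gbp3, Gbp7, Irgm1, Irgm2 and Igtp, and for Ifi47 in the other direction (20.9%). Of these, Gbp2b was above the 40th percentile on only 1 of 3 M0 arrays and on 0 of 3 M2 arrays. It was tested only because of its M1 arrays, and its levels here are not shown to be above background.

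Gbp3 fell most. It read 9.14, 8.67 and 8.92 on the M0 arrays and 7.68, 7.39 and 7.84 on the M2 arrays. That was a 2.42-fold lower level (-1.27, SE 0.14, adjusted p = 1.14e-05). Irgm1 fell by 0.70 (SE 0.11, adjusted p = 0.000219), to 9.11, 8.96 and 8.998, and Gbp7 fell by 0.61 (SE 0.12, adjusted p = 0.00183), to 8.69, 8.45 and 8.34. These 3 genes were called in each of 17 other settings. Smaller falls were those of Gbp2 (-0.58, SE 0.19, adjusted p = 0.0346, its arrays overlapping), Irgm2 (-0.41, SE 0.13, adjusted p = 0.0258) and Igtp (-0.35, SE 0.11, adjusted p = 0.0278). Without M0 replicate 1, without M0 replicate 3, without M2 replicate 2 or with quantile normalization repeated, these 3 calls ended and Gbp3, Gbp7 and Irgm1 were the members called lower, joined by Gbp2b (-0.34, adjusted p = 0.042) in the last. The call of Gbp2 also ended without M2 replicate 3 (adjusted p = 0.056) and with its other probe set (-0.36, adjusted p = 0.134), and that of Irgm2 without M2 replicate 1 (adjusted p = 0.0539). Over 17 other settings the adjusted p was 0.00169 to 0.135 for Gbp2, 0.00816 to 0.122 for Irgm2 and 0.00334 to 0.128 for Igtp.

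Ifi47, of the effector branch, was the member that rose with IL-4 and IL-13. It read 10.32, 9.82 and 10.005 in M0 and 10.61, 10.37 and 10.60 in M2, so that the lowest M2 array was just above the highest M0 array. The difference was 0.48 (SE 0.15, adjusted p = 0.0226), a 1.39-fold higher level. Leaving out M0 replicate 2 ended its call (0.36, adjusted p = 0.106), as did leaving out M0 replicate 3 (0.0615), M2 replicate 1 (0.0781) or M2 replicate 3 (0.0717); its adjusted p ranged from 0.00226 to 0.106 in 17 other settings. Gbp2b, Gbp6 and Iigp1 were not called against M0. Gbp2b was at 3.98 ± 0.07 (SD, n = 3) in M2 against 4.26 ± 0.19 in M0, under the 40th percentile on all M2 arrays (adjusted p = 0.0969; 0.0442 without M0 replicate 2, with 0.0346 to 0.296 over 17 other settings). Gbp6 differed by -0.33 (SE 0.19, adjusted p = 0.21; adjusted p = 0.0221 with replicate numbers blocked, with 0.0221 to 0.526 over 17 other settings). Iigp1 differed by -0.45 with a 95% interval of -1.22 to 0.32, and without M0 replicate 2, its lowest array, by -0.90 (adjusted p = 0.0491; 0.0491 to 0.981 over 17 other settings).

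**Figure D5:**
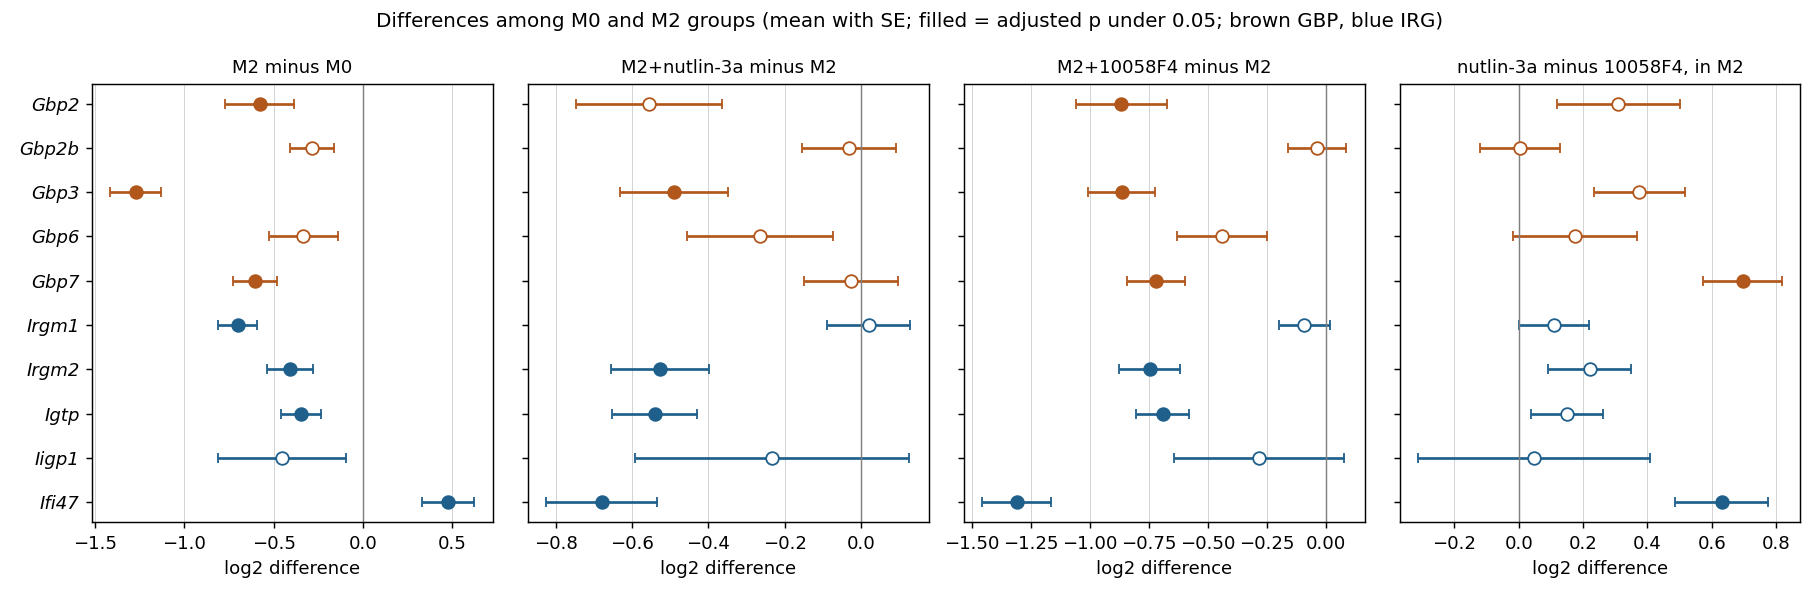
Log2 differences of the 10 GTPases, with the SE of the limma fit, for M2 against M0, each agent in M2 against M2, and nutlin-3a against 10058F4 in M2; brown points are GBPs, blue IRGs, and filled points are called at an adjusted p under 0.05. Each panel has its own scale. Ifi47 is right of zero for M2 against M0 and farthest left for each agent.

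10058F4 lowered 6 of the 10 GTPases in M2 cells and raised none, against 10.2% of all tested genes called lower and 10.6% higher. The median of the 10 differences was -0.71, against -4e-04 for all tested genes. The 6 were 3 GBPs (Gbp2, Gbp3, Gbp7) and 3 IRGs (Irgm2, Igtp, Ifi47), all with arrays that did not overlap M2 (22.2% of all tested genes in this direction) and all called in each of 17 other settings. Ifi47 had the largest fall. It read 10.61, 10.37 and 10.60 on the M2 arrays and 9.49, 8.93 and 9.23 with 10058F4. The level was 2.48-fold lower (-1.31, SE 0.15, adjusted p = 2.15e-05), and all 3 arrays were also below the lowest M0 array, 9.82. Gbp2 read 8.06, 7.66 and 8.15 with 10058F4, against 8.99, 8.57 and 8.91 in M2 (-0.87, SE 0.19, adjusted p = 0.00512). Gbp3 fell by a like amount (-0.86, SE 0.14, adjusted p = 0.000565), to 7.00, 6.61 and 6.71. The chromosome 11 neighbours Irgm2 and Igtp fell by 0.75 (SE 0.13) and by 0.69 (SE 0.11), and Gbp7 fell by 0.72 (SE 0.12).

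The regulator Irgm1 was not called with 10058F4: it read 9.08, 8.76 and 8.96 against 9.11, 8.96 and 8.998 in M2. Its difference was -0.09 with a 95% interval of -0.32 to 0.14, which does not reach the size of the other regulators' falls, although no test between genes was made. Gbp2b stayed under the 40th percentile on all arrays of both groups. Gbp6 differed by -0.44 (SE 0.19, adjusted p = 0.128; adjusted p = 0.00726 with replicate numbers blocked and 0.0242 without M2+10058F4 replicate 1, with 0.00726 to 0.543 over 17 other settings). Iigp1 differed by -0.28 (SE 0.36), too imprecise to place, and its other probe set gave -0.70 (adjusted p = 0.0862; 0.0862 to 0.877 over 17 other settings).

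Nutlin-3a lowered 4 of the 10 and raised none, against 5.85% of all tested genes called lower and 9.56% higher (with each array centred on its median 577 genes were lower and 1589 higher, and with quantile normalization repeated 1040 and 1106, against 802 and 1310). The 4 were Gbp3 and the IRGs Irgm2, Igtp and Ifi47, and the median of the 10 differences was -0.38, against 0.0085 for all tested genes. Ifi47 again fell most, to 9.99, 9.63 and 9.92, a 1.60-fold lower level (-0.68, SE 0.15, adjusted p = 0.00638). Igtp fell to 8.18, 8.01 and 8.04 from 8.70, 8.47 and 8.68 (-0.54, SE 0.11, adjusted p = 0.00502). Irgm2 read 7.74, 7.70 and 7.75 against 8.29, 8.13 and 8.35 (-0.53, SE 0.13, adjusted p = 0.0135). Gbp3 read 7.29, 6.96 and 7.19 (-0.49, SE 0.14, adjusted p = 0.0321). The arrays of these 4 genes and of Gbp2 did not overlap M2 (17% of all tested genes in this direction). Ifi47 and Igtp were called in each of 17 other settings. The calls of Gbp3 and Irgm2 both ended without M2 replicate 1 (adjusted p = 0.1 and 0.0514), without M2 replicate 3 (0.128 and 0.0546) and without M2+nutlin replicate 2 (0.135 and 0.05), and that of Gbp3 also without M2+nutlin replicate 3 (0.0636). Over 17 other settings the adjusted p was 0.00332 to 0.135 for Gbp3 and 0.00287 to 0.0546 for Irgm2.

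Gbp2 missed the threshold with nutlin-3a at 8.53, 7.99 and 8.28 (-0.56, SE 0.19, adjusted p = 0.0678). With replicate numbers blocked it passed (adjusted p = 0.00497), and its other probe set gave -0.59 (adjusted p = 0.0357; 0.00497 to 0.248 over 17 other settings). Gbp7 with nutlin-3a read 8.65, 8.47 and 8.28, overlapping the M2 arrays at 8.69, 8.45 and 8.34. Its difference was -0.02 (95% interval -0.29 to 0.24). Irgm1 differed by 0.02 (95% interval -0.21 to 0.25), and neither Gbp6 (-0.26) nor Iigp1 (-0.23) nor Gbp2b (-0.03) was called.

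Set against each other in M2 cells, the agents differed for 2 of the 10 genes, both higher with nutlin-3a (4.24% of all tested genes were, and 2.72% were lower, or 487 genes against 581 with quantile normalization repeated, with 472 against 373 lower). Gbp7 read 8.65, 8.47 and 8.28 with nutlin-3a and 7.91, 7.71 and 7.70 with 10058F4. That was a 1.62-fold difference (0.70, SE 0.12, adjusted p = 0.0027), called in each of 17 other settings, and its other probe set gave 0.68. Ifi47 was 1.55-fold higher with nutlin-3a than with 10058F4 (0.63, SE 0.15, adjusted p = 0.0163). Its arrays did not overlap, nor did those of Gbp7, as for 19% of all tested genes in this direction, and the call ended without M2+nutlin replicate 1 (adjusted p = 0.0712), M2+nutlin replicate 3 (0.0694), M2+10058F4 replicate 2 (0.0797) or M2+10058F4 replicate 3 (0.0535), with 0.0013 to 0.0797 over 17 other settings. Gbp3 passed with replicate numbers blocked (0.38, adjusted p = 0.0239, against 0.149 without; 0.0239 to 0.388 over 17 other settings). For the other 7 genes the differences were 0.0041 to 0.31 and none was called; the 95% interval was -0.09 to 0.39 for Igtp, -0.06 to 0.50 for Irgm2 and -0.10 to 0.72 for Gbp2. Doses and times of the agents are not known here, so the comparison is of these treatments and not of the agents at matched doses. Since both were compared with the same M2 arrays, their values against M2 are not independent of each other.

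Some other measures also moved with these groups. Of all tested genes, 33.6% were higher and 39.1% lower in M1 than in M0, and 12.7% and 18.4% in M2. Against M2 the shares were 9.56% higher and 5.85% lower with nutlin-3a, and 10.6% and 10.2% with 10058F4. Counts near these shares, as for the macrophage markers in M1, do not set a list apart. Of the 8 macrophage markers 3 were higher and 3 lower in M1 than in M0, among them Cd68 (-1.41) and Fcgr1 (1.98), and 3 were lower in M2, namely Mertk (-1.43), Fcgr1 (-1.10) and Cd14 (-0.96). Against M2, Mertk was higher under both agents (nutlin-3a 1.29, 10058F4 2.15) and Fcgr1 lower (nutlin-3a -0.66, 10058F4 -0.47). Their summed level was 15.8 in M0, 15.6 in M1 and 15.7 in the other groups. The immunoglobulin heavy chain Ighm fell by 2.16 in M1 and by 1.06 in M2 against M0, and the summed log2 level of the 5 B cell markers with a probe set was 9.05 to 9.32 in M0 and 7.57 to 7.87 in M1. Of the 4 tested, 2 were higher and 1 lower in M1, and likewise in M2. The B cell markers had 3 of 4 tested genes lower with each agent than in M2, among them Ighm (-0.82 with nutlin-3a and -1.08 with 10058F4), and their summed level was 8.31 to 8.49 without an agent, 7.62 to 7.93 under nutlin-3a and 7.53 to 7.73 under 10058F4. Signal near the 3′ end of beta-actin minus that near the 5′ end, which grows as RNA degrades, averaged 0.351 ± 0.0543 (SD, n = 3) in M0, 0.178 ± 0.0444 in M1, 0.382 ± 0.0302 in M2, 0.453 ± 0.0346 in M2+nutlin and 0.489 ± 0.025 in M2+10058F4. The same measure of Gapdh moved the other way in M1 (-0.162 ± 0.0347 against -0.273 ± 0.015 in M0) and was -0.284, -0.281 and -0.272 in M2, M2+nutlin and M2+10058F4. In M1, 4 of 5 tested T and NK cell markers were higher than in M0; their summed log2 level (7 genes) was 7.52 to 7.72 against 7.15 to 7.35, and Ifng, the interferon-gamma gene, was under the 40th percentile on all 15 arrays. Dendritic cell markers were higher in M1 for 3 of 6 (7.93 to 8.37 against 7.26 to 7.47 summed), neutrophil markers for 3 of 6 with 1 lower (8.85 to 9.03 against 8.82 to 8.92), and fibroblast, endothelial and epithelial markers for 2 of 6 (8.14 to 9.25 against 8.24 to 9.04). In M2 the neutrophil sum was 8.31 to 8.53, with S100a8 lower than in M0 (-0.69) and Mpo higher (0.26), the dendritic sum 7.50 to 7.58 with none called, and the T and NK sum 7.33 to 7.40 with Ncr1 higher (0.35). Of the fibroblast, endothelial and epithelial markers Pecam1 was higher in M2 (1.54). With either agent none of these 4 lists had a called gene against M2; the sums under nutlin-3a were 7.16 to 7.28 for T and NK, 7.40 to 7.42 for dendritic and 8.24 to 8.31 for neutrophil markers. The part of these in the results was not tested. In bulk samples fewer cells of a type and less RNA per cell cannot be told apart.

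From lowest to highest group mean, 8 of the 10 genes had the order M2+10058F4, M2+nutlin, M2, M0, M1. The share of all tested genes with this order was not counted, so it describes these genes and does not set them apart. Irgm1 had M2 below M2+nutlin with overlapping arrays, and Ifi47 had M0 below M2. M1 stood apart from its neighbour in all 10. Of the 8, M2+nutlin and M2 overlapped for Gbp2b, Gbp6, Gbp7 and Iigp1, and M2 and M0 for Gbp2, Gbp6 and Iigp1, so that both of these steps were separate for Gbp3, Irgm2 and Igtp. Gbp2b was under the 40th percentile on all arrays of its 3 lowest groups and above it on only 1 of 3 M0 arrays. M2+10058F4 and M2+nutlin, the lowest pair in 9 genes, overlapped in 7 of those and stood apart for Gbp7 and Ifi47; for Irgm1 the lowest pair was M2+10058F4 and M2, which overlapped. The replicates with number 2 were the lowest of their group for 8 of 10 genes in M0, in M2 and in M2+10058F4, for 6 in M2+nutlin and for 5 in M1.

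Genes outside the 10 were ranked by Pearson correlation with the mean centred profile of the 10, as a description over arrays that share groups. Each member is part of that profile, which raises its own r. Over all 15 arrays, where M1 sets the pattern, the most alike were Coa5 (r = 0.998), the ISG15 protease Usp18 (0.998), Rnf135 (0.997), the purine phosphorylase Pnp (0.997) and Parp9 (0.997), and the members themselves ran from 0.967 (Ifi47) to 0.999 (Igtp). Over the 12 arrays without LPS and interferon-gamma, they were the ADP-ribosyltransferase Parp14 (r = 0.989), Cd22 (0.974), the ATP-gated channel P2rx4 (0.972), Tor1aip1 (0.970) and the ubiquitin ligase Rnf213 (0.970). There the members ran from 0.712 (Ifi47) and 0.716 (Gbp2b) to 0.979 (Irgm2 and Igtp). Cd22 and P2rx4 did not share the M1 pattern: the mean of Cd22 was 7.94 in M1 against 8.75 in M0, and that of P2rx4 11.7 against 11.8.

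Of 14 other genes of the GBP and IRG families, 4 had a probe set of their own. In M1 cells 3 of the 4 were higher than in M0 (33.6% of all tested genes were), among them Gbp8 (mean 3.40 in M0 and 9.87 in M1, with no exact size) and the IRG-like Gm4951 (5.19, SE 0.25). Gbp8 passed the filter on low values through its M1 arrays and so had to differ. The same 3 were called higher in M2 than in M0 (12.7% of all tested genes were). Gm4951, in contrast to most members, read 7.51, 6.46 and 6.57 in M0 and 8.39, 7.71 and 8.23 in M2 (1.26, SE 0.25, adjusted p = 0.00164). Gbp8 was higher by 0.91 (SE 0.22), but was above the 40th percentile on 0 of 3 M0 arrays and 1 of 3 M2 arrays. Irgc1 was the other, higher by 0.31 (SE 0.09) with overlapping arrays. Gbp8 was 1 of 4 lower with 10058F4 (-1.31, SE 0.22, adjusted p = 0.000726) and with nutlin-3a (-1.05, SE 0.22), but it was above the 40th percentile on only 1 of the 12 arrays outside M1, so these are not exact sizes. Among all tested genes 10.2% were lower with 10058F4 and 5.85% with nutlin-3a. Gm4951 was not called with either agent. The other interferon-induced GTPases measured, Mx1 and Mx2, rose in M1 by 5.74 (SE 0.20) and 4.47 (SE 0.19), and Mx1 fell by 1.56 in M2 (SE 0.20) and by 0.84 with 10058F4 (SE 0.20). With nutlin-3a Mx1 differed from M2 by 0.63 (adjusted p = 0.0513, arrays not overlapping), and it was higher with nutlin-3a than with 10058F4 (1.47, SE 0.20, adjusted p = 0.000389).

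In the signalling chain above the GTPases, 10 of 15 receptors, kinases and transcription factors were higher in M1 than in M0 and 4 lower (median 0.58). The shares of all tested genes were 33.6% and 39.1%. The largest changes were rises of Batf2 (4.06, SE 0.15), Irf7 (3.78, SE 0.29), Irf1 (2.80, SE 0.08), an activator of GBP genes, and Stat2 (2.77, SE 0.11). In M2 against M0, 4 were higher and 3 lower (12.7% and 18.4% of all tested genes were). The kinase gene Jak2 rose by 1.78 (SE 0.07) and Irf1 by 1.10 (SE 0.08), while Irf9, a part of ISGF3, fell by 0.72 (SE 0.11) and Ifngr1, the ligand-binding interferon-gamma receptor chain, fell by 0.64 (SE 0.06). With 10058F4, 2 were higher than in M2 and 6 lower (10.6% and 10.2% of all tested genes were). Ifngr1 rose by 1.40 (SE 0.06, adjusted p = 1.34e-09), whereas Irf1 fell by 0.99 (SE 0.08, adjusted p = 1.04e-06), the class II activator Ciita fell by 0.88 (SE 0.23) and the type I receptor chain Ifnar1 fell by 0.61 (SE 0.09). With nutlin-3a 9.56% of all tested genes were higher and 5.85% lower. Ifngr1 alone of the 15 was higher with it (0.33, SE 0.06) and 4 were lower: Ciita (-0.88), Ifnar1 (-0.48), Irf1 (-0.28, SE 0.08, adjusted p = 0.0299) and Ifngr2 (-0.24). Among 8 inhibitors of interferon signalling, 5 were higher and 1 lower in M1, led by Socs3 (6.93, SE 0.11), Socs1 (4.88, SE 0.08), which blocks JAK kinases, and Usp18 (4.34, SE 0.14). In M2 against M0, 2 were higher, Socs1 (2.95, SE 0.08) and Ptpn2 (0.47), and 2 lower, Usp18 (-0.69) and Pias3 (-0.59).

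The genes that place the GTPases on vacuoles or act after them did not all follow. In M1, 33.6% of all tested genes were higher than in M0 and 39.1% lower. Of 10 ATG8 conjugation genes 7 were lower and 1 higher in M1 than in M0 (median -0.21), led by Gabarapl1 (-1.14, SE 0.09), Map1lc3b (-1.11, SE 0.09) and Map1lc3a (-0.84, SE 0.14), with Atg16l1 the one that rose (0.73, SE 0.07). With nutlin-3a Atg3 was higher (0.27) and with 10058F4 Atg12 (0.23), and no other of the 10 was called with either. That is near the 9.56% and 10.6% of all tested genes called higher with these agents. Of 5 genes of the prenylation pathway, Fnta (-0.55) and Pggt1b (-0.39), subunits of enzymes that attach lipid tails, were lower in M1, and Rce1, a protease that trims the tagged proteins, was higher (0.29). These counts do not set the pathway apart from all tested genes. Of 8 inflammasome genes 7 were higher in M1 (median 1.41), led by Il1b (5.27, SE 0.14), Casp4, the mouse caspase-11 gene (2.74, SE 0.10), and Casp1 (1.94, SE 0.07), and the adaptor gene Pycard was lower (-0.87, SE 0.10). With 10058F4, 4 of the 8 were lower than in M2 (10.2% of all tested genes were): Pycard (-0.98, SE 0.10), Casp1 (-0.43), Casp4 (-0.41) and Gsdmd (-0.30). With nutlin-3a it was Casp1 (-0.23), against 5.85% of all tested genes. Of 8 ubiquitin and effector genes, 5 were higher in M1, led by Nos2 (3.63, SE 0.09) and Rnf213 (2.31, SE 0.11) beside Ubd, whose mean went from 3.49, under the 40th percentile, to 7.87 and has no exact size, and Calcoco1 was lower (-1.02, SE 0.14). Ubd, 1 of the 5, passed the filter on low values through its M1 arrays and so had to differ. Rnf213 was also lower in M2 than in M0 (-0.35, SE 0.11), with nutlin-3a (-0.43, SE 0.11) and with 10058F4 (-0.57, SE 0.11).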

How the data were processed

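Gene expression of 15 macrophage samples in 5 groups of 3 was read on 1 array each. The authors deposited 1 log2 value for every probe set and array, and RMA is the tool named per the submitters' processing notes. Base 2 was inferred from the range of the values, and RMA's version and options are not known here. RMA forces arrays to a like distribution, so a shift of most genes one way would be hidden. The table held 45101 probe sets, 64 of them controls; 34945 named 1 gene, 932 several and 9160 none, and 34741 gene IDs matched RefSeq (GRCm38.p6). Genes above the 40th percentile of an array on 3 or more of the 15 were tested (13703 genes; 4490 were not). Of the 10 members, 4 had 2 probe sets. The probe set used for Gbp2 carries the suffix x, which can hybridise with related genes, and those of Gbp3 and Iigp1 the suffix a, for several transcripts of 1 gene.

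A limma model (lmFit, eBayes) with a mean for each of the 5 groups was fitted to the 15 arrays together, leaving 10 residual degrees of freedom beside 3.86 from the prior, with contrasts between groups and Benjamini-Hochberg adjustment within a comparison over all tested genes. Members and lists were chosen with earlier results of these data known. Of 120 list genes 100 had a probe set. All 10 members are named in each comparison, list genes by size among those called, and the likeness ranking took the 5 highest. Groups and replicate numbers were read from the sample titles, where the meaning of a number is not explained. Pairing was checked by correlating, between arrays of equal number, the deviations from their group means: r was 0.232 to 0.424 (M2 with M0), 0.337 to 0.381 (M2+nutlin with M2), 0.308 to 0.368 (M2+10058F4 with M2) and 0.34 to 0.408 (both agents), all above the limit of 0.1, against 0.055 to 0.263 (M1 with M0) and 0.0635 to 0.148 (M1 with M2). The design text names no blocking and the main fit used none. Its SEs and adjusted p-values for the comparisons above the limit therefore leave this shared deviation out. Calls that changed with replicate numbers blocked are given beside the main ones. Tested on simulated data modelled on the nutlin-3a comparison (13703 genes), the fit recovered 28% of 50 genes changed 1.25-fold, 80% at 1.5-fold, 96% at 2-fold and 100% at 4-fold, with 11 false among 163 calls. The simulation changed only 50 genes per fold and drew noise independently for each array. In the real comparison 1310 genes were called higher and 802 lower, and arrays of equal number shared deviations, so these rates may not carry over. R 4.3.3, limma 3.58.1, Python 3.11.15, pandas 2.3.3 and matplotlib 3.10.9 were used.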

Additional observations from a re-analysis of the deposited data

How the results depend on the processing

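The 10 calls of M1 against M0 and the 10 of M1 against M2 kept direction and side of the threshold in all 17 other settings tried for each (filters, probe set choices, normalizations, variance models, array weights, the replicate block and each array left out; the other probe set of 4 members was added after seeing the data). So did 3 of 7 calls of M2 against M0, 2 of 4 with nutlin-3a, 6 of 6 with 10058F4 and 1 of 2 between the agents. Among the M1 calls, those of Gbp2b show nothing further, because it passed the filter on low values through its M1 arrays and so had to differ. With the replicate block, 7 members were lower and 1 higher in M2 than in M0, 5 lower with nutlin-3a, 7 lower with 10058F4 and 3 higher with nutlin-3a than with 10058F4; beyond the calls given for Gbp2, Gbp3 and Gbp6 it changed none. For M1 the pairing check was mixed, with r of 0.055 to 0.263 (M1 with M0) and 0.0635 to 0.148 (M1 with M2) on both sides of the limit of 0.1. The block left 10 members called in each M1 comparison, Gbp2b again among them. Leaving out 1 array gave 3 to 8 members lower and 0 to 1 higher in M2 against M0, 2 to 4 lower with nutlin-3a and 1 to 2 higher between the agents. The GBP minus IRG difference of M1 against M2 moved from 1.16 to 1.20 with probe sets free of cross-hybridisation suffixes and 1.21 with the other probe sets. Without Gbp2b, an alternative added after seeing the data, it was 0.77, that of M1 against M0 went from 0.83 to 0.36, and that of 10058F4 against M2 from 0.038 to -0.099. With nutlin-3a it ran from 0.066 to 0.15 with 1 array left out, and that of 10058F4 against M2 ran from -0.0036 to 0.075 with 1 array left out. Signs turned for uncalled differences near 0. With nutlin-3a these were Gbp2b (0.0075 with quantile normalization repeated and 0.0075 with arrays centred; -0.072 to 0.0091 with 1 array left out), Irgm1 (-0.041 with quantile normalization repeated and -0.0018 with array weights; -0.065 to 0.084 with 1 array left out), Gbp7 (0.014 with arrays centred; -0.12 to 0.073 with 1 array left out) and Iigp1 (-0.53 to 0.084 with 1 array left out). With 10058F4 it was Gbp2b (-0.13 to 0.063 with 1 array left out). Between the agents they were Gbp6 (-0.014 with its other probe set), Iigp1 (-0.012 with array weights; -0.24 to 0.37 with 1 array left out) and Gbp2b (-0.095 to 0.095 with 1 array left out). The causes were not tested. Low signal limits Gbp2b outside M1, and the spread between arrays limits Iigp1.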
